A study of Mus musculus with 8 samples.

Results

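Sox genes encode transcription factors that bind DNA through an HMG box related to that of the testis-determining factor Sry. All genes whose symbol was Sox followed only by digits were taken from a deposited table of 712 genes, and 6 met this rule: Sox2, Sox7, Sox9, Sox10, Sox17 and Sox21. Their levels were read in all 42 cell states of the table, which cover the germ layers and the extraembryonic tissues of the gastrulating mouse embryo. Other members of the family were not analysed here.

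Members of the family are grouped by sequence, and each group has its own known settings. SoxB factors (here Sox2, of the B1 group, and Sox21, of the B2 group) mark pluripotent and neural cells, where Sox2 is known as a partner of Oct4 and as a maintainer of neural progenitors, and Sox21 is known, in the chick, to counteract B1 factors. SoxE factors (Sox9 and Sox10) are known for neural crest, cartilage and notochord, and Sox10 for the glial and pigment lineages that arise from the crest. SoxF factors (Sox7 and Sox17) are known for endoderm and blood vessels, and Sox17 is a standard marker of definitive endoderm.

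The study profiled single cells of whole wild-type mouse embryos with droplet 3' RNA sequencing at 5 stages: E6.5 (1 library), E7.0 (1 library), E7.5 (2 libraries), E8.0 (2 libraries) and E8.5 (2 libraries). Each library pooled between 4 and 10 embryos, which came from eggs of the B6D2F1 strain and sperm of B6/CAST F1 males and grew in CD-1 foster mothers; no group carried a mutation or a treatment, and extraembryonic tissue was kept where possible. Each of the 42 states was treated as holding cells of any of the 8 libraries, and the table gives 1 value per gene and state, without a column for any library, embryo or stage. For this reason no replicate error, test or p-value exists for any value below, a state cannot be assigned to a stage here, and the depth behind each value is unknown.

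The values are the authors' cluster-centre scores, called levels below. They ran from 0 to 1.79 over the table, and neither their scale nor a log base is stated in the sources used here, so results are given as levels and differences of levels and never as folds. The reads are 3' tags, so that no length correction was made when levels of different genes are set side by side. The sum of all 712 levels in a state ran from 73.6 to 166 (median 118.8 over the 42 states). Over all genes the highest level reached in any state had a median of 0.749 (lowest 0.266, highest 1.79), and all 6 Sox genes can be placed against this: the highest level was 0.829 for Sox9, 0.784 for Sox17, 0.674 for Sox7, 0.667 for Sox2, 0.495 for Sox10 and 0.360 for Sox21.

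States carry only numbers in the table. A state was called by a cell type, with the ending "-like", where markers of that type stood high in it, and no Sox gene was among the markers, so that the names did not rest on the genes described. This named 34 states in 19 classes and left 8 states unnamed (states 2, 5, 6, 12, 20, 34, 35 and 36). Several classes held 1 state only, among them the neural crest-like (state 33), gut endoderm-like (state 7), parietal endoderm-like (state 14) and primordial germ cell-like (state 27) classes.

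The promoters of both SoxB genes are shown because these genes shared their highest state, described below. Each line gives the 250 bases before the start of the gene, 5′ to 3′ on the strand of the gene, from RefSeq on build GRCm38.p6. Sox2 lies on the plus strand (chr3:34649745-34649994) and Sox21 on the minus strand (chr14:118237031-118237280). Of the 6 Sox genes, these 2 had an entry in the promoter table used here. The RefSeq start of Sox2 lies upstream of the GENCODE start given below. Capitals mark the matches to the motifs searched.

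Sox2: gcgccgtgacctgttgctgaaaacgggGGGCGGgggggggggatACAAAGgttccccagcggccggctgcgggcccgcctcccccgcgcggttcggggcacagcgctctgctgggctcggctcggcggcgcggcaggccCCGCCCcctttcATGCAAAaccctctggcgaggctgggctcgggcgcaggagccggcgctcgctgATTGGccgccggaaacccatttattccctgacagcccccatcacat
Sox21: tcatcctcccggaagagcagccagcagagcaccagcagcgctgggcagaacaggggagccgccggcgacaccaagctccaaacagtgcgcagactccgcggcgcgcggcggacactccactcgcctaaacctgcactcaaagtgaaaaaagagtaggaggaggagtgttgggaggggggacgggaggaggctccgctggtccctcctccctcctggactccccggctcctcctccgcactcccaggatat

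Both strands were searched for ATGCAAA, letters bound by POU factors such as Oct4. ACAAAG as well as the related ACAATG, both letters that Sox factors bind, were searched too, as were the general promoter elements CCAAT (the CCAAT box), GGGCGG (the GC box) and the TATA box TATAAA. Upstream of Sox2, counted back from the start, ATGCAAA stood at positions -99 to -93 and ACAAAG at -206 to -201. CCAAT stood on the other strand at -46 to -42, and GGGCGG stood at -223 to -218 and, on the other strand, at -111 to -106. No matches overlapped. None of the 6 motifs stood in the Sox21 window, and 72% of the Sox2 bases and 65.2% of the Sox21 bases were G or C. Among 32851 promoters of the same length, ATGCAAA occurred in 4.12%, ACAAAG in 16.5%, ACAATG in 10.7%, CCAAT in 33.8%, GGGCGG in 32.7% and TATAAA in 12.4%. These matches describe letters and are not measured binding sites.

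Sox2 was the most widely present of the 6 genes, and its level was high in neural-like, epiblast-like and germ cell-like states and near 0 in mesoderm-like states. Its level was 0.667 in state 24, 0.617 in state 39 and 0.608 in state 1, all neural-like, while the remaining neural-like state 11 had 0.361. In the epiblast-like states it was 0.505 in state 8, 0.482 in state 17, 0.325 in state 19 and 0.239 in state 3. State 3 differs from the other epiblast-like states in that the streak genes Eomes, T and Mesp1 were among its 10 leading genes. The primordial germ cell-like state 27 had a Sox2 level of 0.498, inside the epiblast-like range.

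Outside these states, Sox2 reached 0.450 and 0.365 in the neuromesodermal progenitor-like states 31 and 26, cells that are known to supply both spinal cord and paraxial mesoderm. It was 0.403 and 0.245 in the extraembryonic ectoderm-like states 0 and 25, where Sox2 is known to support trophoblast stem cells. Of the node and notochord-like states, state 23 had 0.343 and the ciliated state 38, led by genes such as Tppp3 and Foxj1, had 0.0911. Of the surface ectoderm-like states, state 10 had 0.393 and state 16 had 0.0831. In all, 13 states reached 0.25 and 4 reached 0.5, while 25 states stayed under 0.1, and the median over the 42 states was 0.0504. Sox2 lies at chr3:34650405-34652461 on the plus strand (GENCODE M21, GRCm38), wholly inside the span of the transcript Sox2ot (chr3:34104270-34682619) on the same strand. Whether they share exons was not examined, and whether reads of Sox2ot were counted for Sox2 is not known here.

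Sox21 was present in a subset of the states that held Sox2, and its levels were lower. It was 0.360 in state 24, its highest state as for Sox2, then 0.246 in state 1, 0.224 in state 39 and 0.109 in state 11, so that all 4 neural-like states were above 0.1. The extraembryonic ectoderm-like states fell inside the neural-like range, with 0.294 in state 0 and 0.159 in state 25. Sox21 was 0.216 in the node and notochord-like state 23 and 0.129 in the gut endoderm-like state 7. In contrast to Sox2, it was between 0.00566 and 0.0118 in the 4 epiblast-like states and 0.0117 in the primordial germ cell-like state. Sox21 lies at chr14:118233232-118237030 on the minus strand, and its first part overlaps the long non-coding RNA gene Gm4675 on the other strand.

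**Figure D1:**
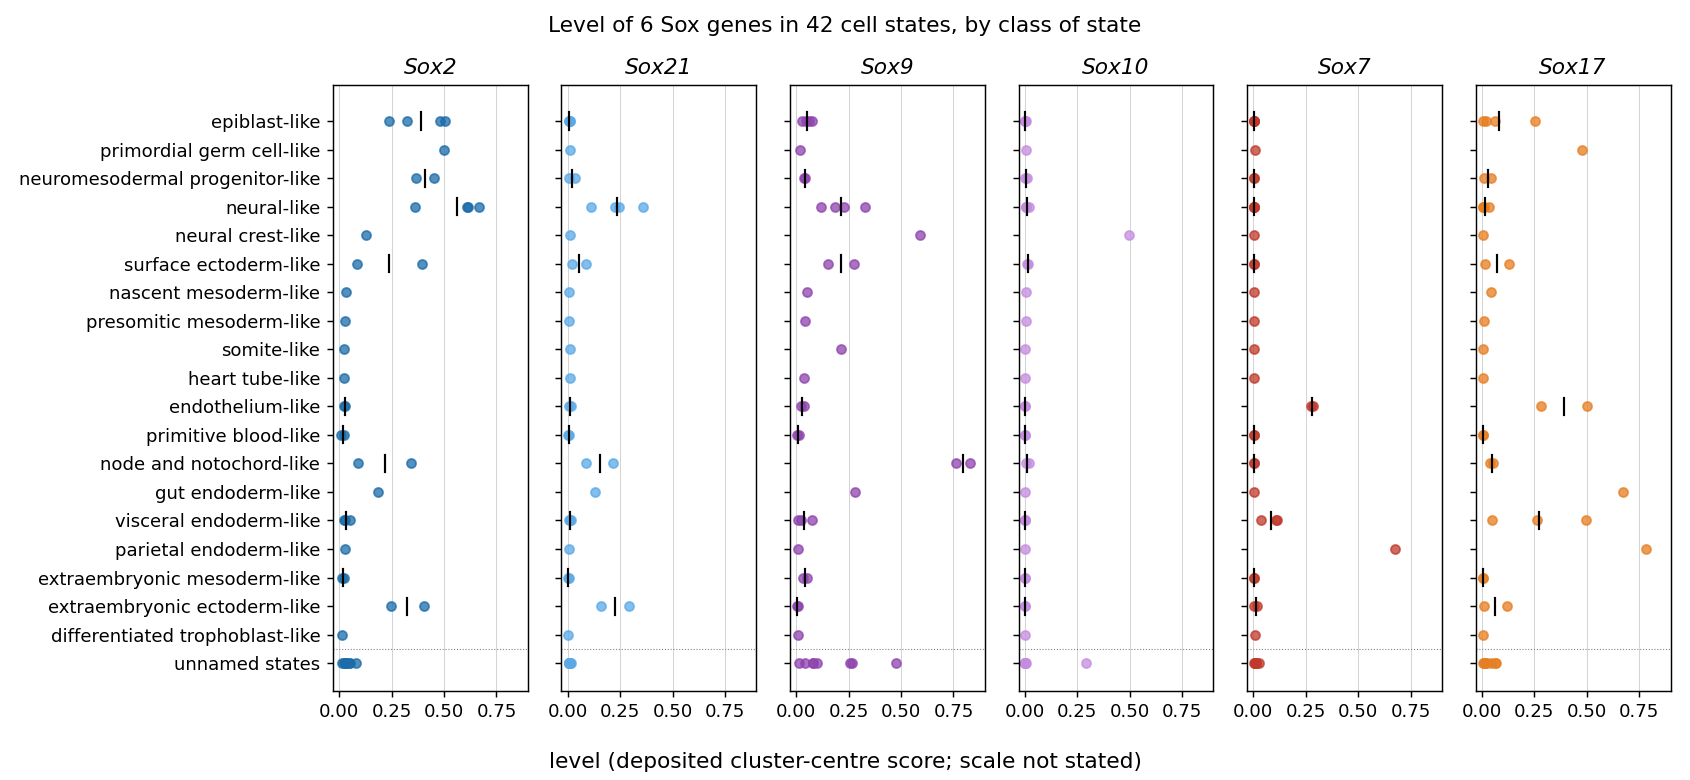
Level (deposited cluster-centre score, horizontal axis) of each of the 6 Sox genes in the 42 states, grouped down the page by class of state; a point is 1 state and a black bar is the mean of a class with more than 1 state. Sox2 is spread over ectoderm, epiblast and germ cell classes, Sox10 stands at 0.495 in the neural crest-like state and at 0.291 in 1 unnamed state, and Sox7 is at 0.25 or more in the parietal endoderm-like and endothelium-like states only.

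Sox9 was highest in the node and notochord-like states, at 0.829 in state 23 and 0.762 in state 38. The neural crest-like state 33 followed with 0.590. The unnamed state 34, led by Prrx2, Nnat and Col3a1, had 0.475, and the unnamed state 35, which shares Tfap2b and Crabp1 with state 33 among its leading genes, had 0.266. Sox9 was 0.328 in the neural-like state 1, 0.280 in the gut endoderm-like state 7, 0.275 in the surface ectoderm-like state 10 and 0.214 in the somite-like state 18, and somites are known to hold precursors of the cartilage that Sox9 specifies. It reached 0.25 in 9 states and 0.5 in 3, and it was lowest in the extraembryonic ectoderm-like state 25, at 0.00129. Sox9 lies at chr11:112782224-112787760 on the plus strand.

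Sox10 had the narrowest distribution. Its level was 0.495 in the neural crest-like state 33 and 0.291 in the unnamed state 35, and no other state exceeded 0.0216. Of the 42 states, 40 were under 0.05, and Sox10 was listed at 0 in 6 states. In state 35 Sox10 was itself among the 10 leading genes, and this state had as many leading genes from another marker list as from the neural crest list, so it was not named. Sox10 lies at chr15:79154908-79165240 on the minus strand.

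Sox7 was highest in the parietal endoderm-like state 14, at 0.674. This state is led by basement membrane genes such as Lama1, Lamc1 and Col4a2, which parietal endoderm is known to secrete in bulk. The endothelium-like states came next, with 0.284 in state 13 and 0.276 in state 32. The visceral endoderm-like states had 0.112 (state 29), 0.108 (state 4) and 0.0377 (state 40), and every remaining state was under 0.05. The gut endoderm-like state 7 had a Sox7 level of 0.00280, below the Sox7 median of 0.00444 over the 42 states. Sox7 lies at chr14:63943673-63950732 on the plus strand.

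Sox17 shared the parietal endoderm-like state as its highest, at 0.784, and was next highest in the gut endoderm-like state 7, at 0.672. It was 0.501 in the endothelium-like state 32 and 0.283 in the endothelium-like state 13, which is led by the early regulators Etv2, Kdr and Tal1. The visceral endoderm-like states were far apart, with 0.499 in state 4, 0.262 in state 29 and 0.0501 in state 40. The primordial germ cell-like state had 0.479, and of the epiblast-like states the streak-marked state 3 had 0.252 while the others were between 0.00334 and 0.0606. Sox17 reached 0.25 in 8 states and was under 0.1 in 32. Sox17 lies at chr1:4490931-4497354 on the minus strand, and its first part overlaps Gm37587 on the other strand.

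Without a replicate error, states with close levels could not be put in a firm order. For Sox2 this holds for states 39 and 1 (0.617 and 0.608) and for states 8 and 27 (0.505 and 0.498), for Sox7 for states 13 and 32 (0.284 and 0.276), and for Sox17 for states 32 and 4 (0.501 and 0.499).

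At a level of 0.25 the 6 genes occurred in few combinations. Of the 42 states, 17 had no Sox gene at that level, 13 had 1 and 12 had 2, and none had more. Sox7 was never at this level without Sox17: the 3 states with Sox7 (13, 14 and 32) were 100% of the Sox7 states and 37.5% of the 8 Sox17 states. Likewise both Sox10 states (33 and 35) also held Sox9, which makes 100% of the Sox10 states and 22.2% of the 9 Sox9 states. Both Sox21 states (0 and 24) also held Sox2, 15.4% of the 13 Sox2 states. Sox2 and Sox9 were together in the neural-like state 1, the surface ectoderm-like state 10 and the node and notochord-like state 23. Sox9 and Sox17 were together in the gut endoderm-like state 7 alone, and Sox2 and Sox17 in the primordial germ cell-like state 27 alone. The epiblast-like state 3 came close to the latter pair, with Sox17 at 0.252 and Sox2 at 0.239, just under the cut. The remaining pairs did not share a state at this level.

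Of the 17 states without a Sox gene at 0.25, 14 had all 6 genes under 0.1. These included both primitive blood-like states (9 and 22), both extraembryonic mesoderm-like states (15 and 41), the heart tube-like, nascent mesoderm-like, presomitic mesoderm-like and differentiated trophoblast-like states, and the visceral endoderm-like state 40. In state 22 the highest of the 6 levels was 0.00833. The other 3 of the 17 states were 25 (extraembryonic ectoderm-like), 18 (somite-like) and 16 (surface ectoderm-like), where the highest level was 0.245 for Sox2, 0.214 for Sox9 and 0.152 for Sox9.

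Across the 42 states the 3 pairs of genes within a group had the 3 highest correlations of the 15 pairs. Pearson r was 0.700 for Sox7 and Sox17, 0.667 for Sox2 and Sox21 and 0.393 for Sox9 and Sox10, and the other 12 of the 15 pairs lay between -0.238 (Sox2 and Sox7) and 0.324 (Sox9 and Sox21). Without the highest states of either gene, r was 0.532 for the SoxF pair, 0.597 for the SoxB pair and 0.197 for the SoxE pair. By rank, Spearman rho was 0.514 for the SoxF pair, 0.643 for the SoxB pair and 0.611 for the SoxE pair, and between -0.503 and 0.432 for the other 12, 5 of which had the other sign by r. These are descriptions over states that share libraries, depth and lineage, and no p is given for them. The plot of paired levels shows where the SoxF and SoxE pairs part: the gut endoderm-like state 7 and the germ cell-like state 27 held Sox17 with Sox7 at 0.00280 and 0.00811, and the node and notochord-like states held Sox9 with Sox10 at 0.0216 and 0.00345.

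**Figure D2:**
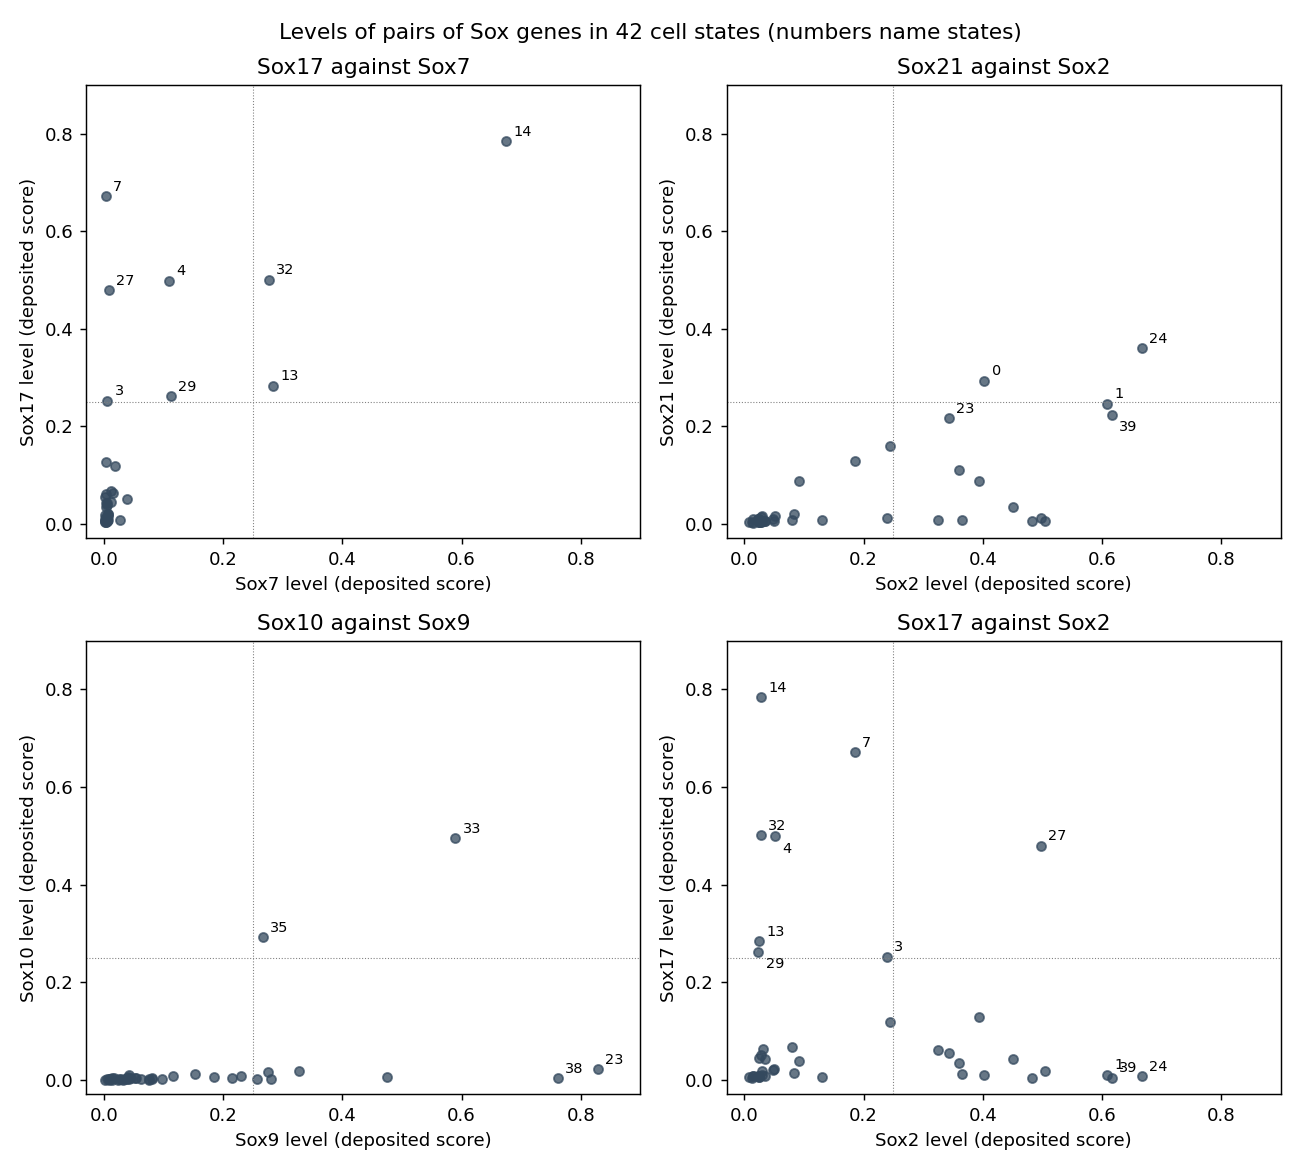
Levels (deposited scores) of 4 pairs of Sox genes, 1 point per cell state, 42 states; numbers name the states and dotted lines mark a level of 0.25. Sox7 is at 0.25 or more only where Sox17 is too (states 13, 14 and 32), Sox10 only where Sox9 is (33 and 35), and state 27 alone lies past 0.25 for both Sox2 and Sox17. State 3, at 0.252 for Sox17 and 0.239 for Sox2, lies just short of the line for Sox2.

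Differences between classes were described for 16 comparisons. A gene was called where the class means lay at least 0.5 apart and no state of one class fell inside the range of the other. With 6 genes there were 96 differences, and 6 of them were called, in 4 comparisons. In each case the share of all 712 genes called the same way is given, since a class of 1 state makes non-overlap easy to reach. No Sox gene was called in the other 12 comparisons. In these, the share of all genes called in either direction was 2.39% for epiblast against nascent mesoderm, 6.32% for epiblast against extraembryonic ectoderm, 1.83% for neural against epiblast, 1.54% for neural against surface ectoderm and 0.843% for neural crest against neural states. It was 0.702% for neuromesodermal progenitor against presomitic mesoderm, 2.11% for neuromesodermal progenitor against neural, 3.09% for presomitic mesoderm against somite and 7.3% for gut against visceral endoderm states. It was 7.44% for endothelium against primitive blood, 3.09% for primordial germ cell against epiblast and 0.14% for ectoderm against mesoderm states of the embryo.

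Among the endoderm-like classes, both SoxF genes were called higher in the parietal than in the visceral endoderm-like states, extraembryonic layers that share an origin in the primitive endoderm. Sox7 was 0.674 in parietal endoderm-like state 14 and averaged 0.0859 in the visceral endoderm-like states (range 0.0377 to 0.112, 3 states), a difference of 0.588. Sox17 was 0.784 in state 14 and averaged 0.270 in the visceral endoderm-like states (0.0501 to 0.499), a difference of 0.514. In this comparison 4.92% of all genes were called higher, with Fst, Lama1 and Lamc1 in the lead, while the serum carrier genes Apom, Ttr and Rbp4 were lowest against the visceral endoderm-like states. These leading genes were among the markers that named both classes, so their lead followed in part from the naming. The same holds for some leading genes of the comparisons below, such as T, Noto, Mesp1 and Crabp2. The differences of Sox7 and Sox17 ranked 30th and 34th of the 712 genes.

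Gut endoderm-like state 7 was set against 4 classes, and Sox17 was called in 3 of them. It was 0.672 in gut endoderm-like state 7 and averaged 0.0287 in the 7 states of embryonic ectoderm (0.00391 to 0.128), a difference of 0.643, with 3.23% of all genes called higher. Against the 8 states of embryonic mesoderm, which averaged 0.108 (0.00539 to 0.501), the difference was 0.564, with 3.93% of all genes called higher. The endothelium-like states supplied the upper end of that mesoderm range, and the difference was 0.498 when each state was centred on the median of its genes, just under the limit. Between the node and notochord-like and the gut endoderm-like states, Sox17 was 0.0380 and 0.0544 in node and notochord-like states 38 and 23, against 0.672 in gut endoderm-like state 7, a difference of -0.626, and 2.11% of all genes were called lower. Node, notochord and gut are known to arise from the anterior primitive streak.

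In the same comparison Sox9 went the other way. It was 0.829 and 0.762 in node and notochord-like states 23 and 38, against 0.280 in gut endoderm-like state 7, a difference of 0.516, with 4.07% of all genes called higher. The genes with the largest differences beside it were T, Ppp1r1a and Noto, all higher in the node and notochord-like states, and Spink1, Trh and Ttr, all lower. Sox2 and Sox21 overlapped between these classes, with means of 0.217 for Sox2 in node and notochord-like states and 0.185 in gut endoderm-like state 7, and of 0.152 for Sox21 in node and notochord-like states and 0.129 in gut endoderm-like state 7. Against the visceral endoderm-like states, gut endoderm-like state 7 was 0.402 higher in Sox17 (0.672 against a mean of 0.270) and 0.244 higher in Sox9 (0.280 against 0.0361), both under the limit of 0.5, and 11.9% of all genes were past 0.25 higher in that comparison.

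Another 10 differences were between 0.25 and 0.5 without overlap of states. Among all genes the share past 0.25 in the same direction is given with each.

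Sox2 separated the ectoderm-like states from the states taken here as mesoderm-like of the embryo. The latter were the nascent mesoderm-, presomitic mesoderm-, somite-, heart tube-, endothelium- and primitive blood-like states. The unnamed states and node and notochord-like states 23 and 38 were in neither class. Sox2 was 0.343 and 0.0911 in states 23 and 38, both inside the ectoderm-like range. It averaged 0.408 in the 7 ectoderm-like states (lowest 0.0831 in state 16, highest 0.667 in state 24), against 0.0244 in the 8 mesoderm-like states (0.00833 to 0.0340). The difference of 0.384 was the 5th highest of the 712 genes, and 0.562% of all genes, 4 genes, were past 0.25 higher without overlap. When each state was centred on the median of its genes, the difference of means was 0.373, but the classes overlapped. Sox2 was then -0.00281 in surface ectoderm-like state 16 and 0.00745 in primitive blood-like state 9. At the limit of 0.5, 0.14% were called higher, which was Crabp2, a retinoic acid binding protein gene, alone. Sox10 did not overlap either, but its mean of 0.0803 in the ectoderm-like states rested on the neural crest-like state, and the others were at most 0.0186. The lowest ectoderm-like level was 0.00573 and the highest mesoderm-like level 0.00434, both near 0. How many of all genes were without overlap at any difference was not counted here.

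The same separation was seen where mesoderm-like states were set against cell types known to give rise to mesoderm. Sox2 averaged 0.388 in the epiblast-like states (0.239 to 0.505, 4 states), against 0.0340 in nascent mesoderm-like state 37, a difference of 0.354, with 4.92% of all genes past 0.25 higher. The genes with the largest differences were Utf1, Cldn6 and Pim2, higher in the epiblast-like states, and Lefty2, Mesp1 and Phlda2, lower in them. Sox2 averaged 0.408 in the neuromesodermal progenitor-like states (0.365 and 0.450), against 0.0287 in presomitic mesoderm-like state 30. This difference of 0.379 was the 6th highest of the 712 genes, after genes led by Nkx1-2, Hes3 and Igfbp2, and 2.39% of all genes were past 0.25 higher.

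Neural crest-like state 33 differed from the neural-like states by more than 0.25 in all 3 of Sox2, Sox9 and Sox10. Sox10 was 0.495 in neural crest-like state 33, against a mean of 0.0100 in the neural-like states (0.00573 to 0.0186), a difference of 0.485 that ranked 6th. Sox9 was 0.590 in neural crest-like state 33, against a mean of 0.214 in the neural-like states (0.116 to 0.328), a difference of 0.375. For both, 3.93% of all genes were past 0.25 higher, led by Fam212a, Tfap2b and Mef2c. Sox2 went the other way, at 0.130 in neural crest-like state 33 and a mean of 0.563 in the neural-like states (0.361 to 0.667), a difference of -0.433, with 2.53% of all genes past 0.25 lower. Sox21 was lower too, at 0.00842 against a mean of 0.235 (0.109 to 0.360), a difference of -0.226 without overlap but under 0.25. The share of all genes lower without overlap at any difference was not counted for it. The Sox2 difference was -0.501 when states were named from markers in a single list only. When ties between marker lists were allowed in naming, state 35 joined the neural crest-like class. The differences were then 0.214 for Sox9, under 0.25, 0.383 for Sox10 and -0.458 for Sox2. Sox9 in state 35, at 0.266, lay inside the neural-like range.

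**Figure D3:**
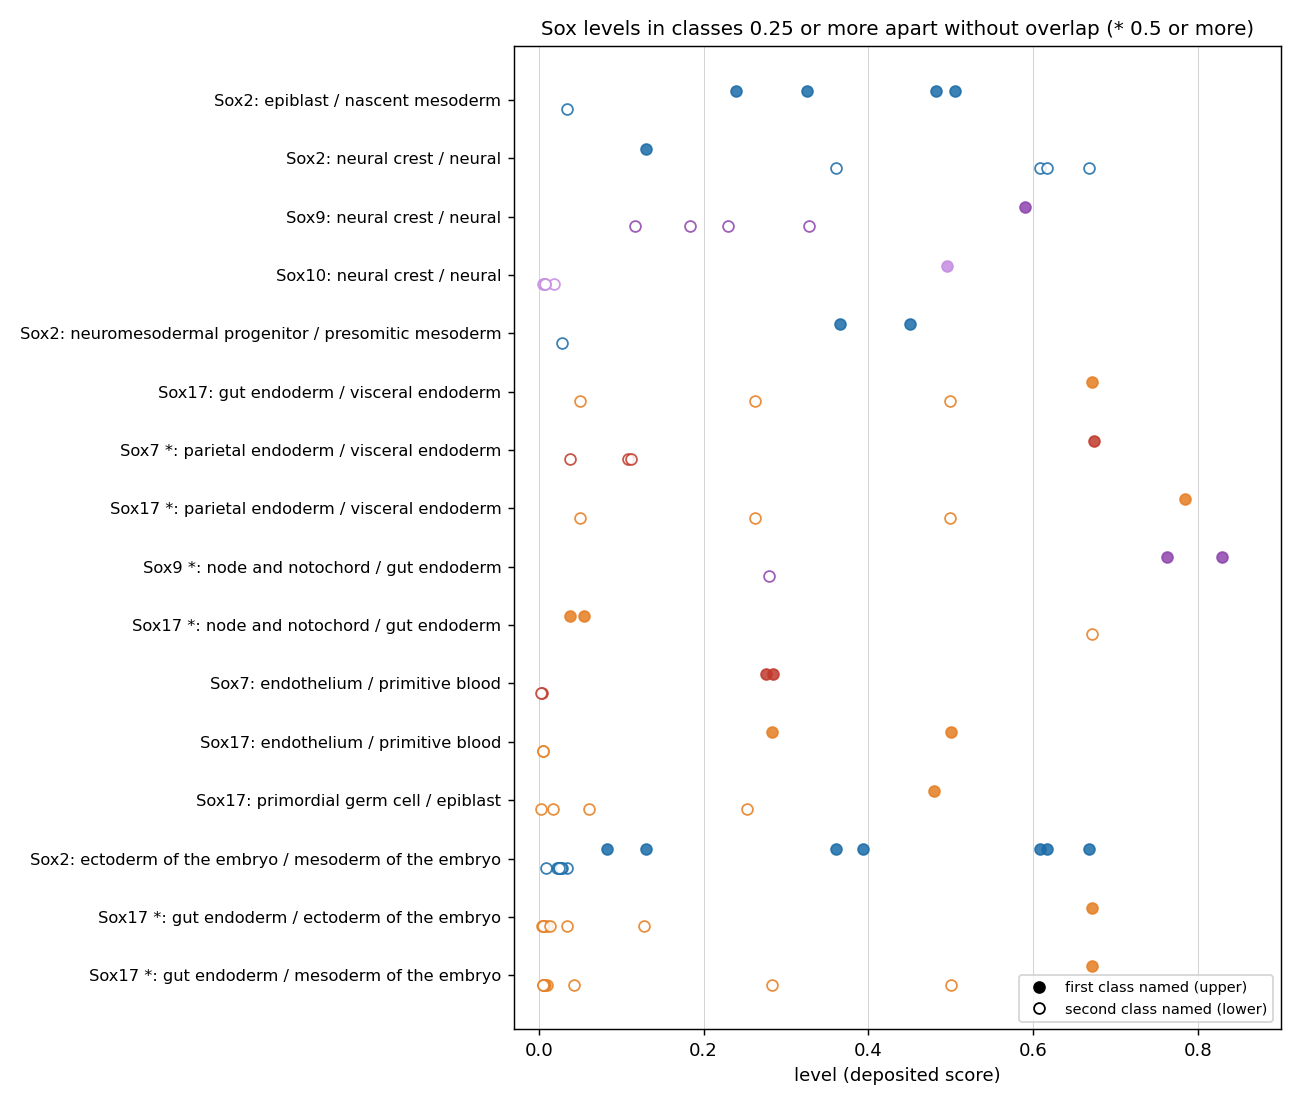
Levels (deposited scores) of Sox genes in the states of 2 classes, for the 16 differences of class means of 0.25 or more without overlap of states; filled points are states of the class named first and open points those of the class named second, and a star marks differences of 0.5 or more. Sox2 lies between 0.0831 and 0.667 in embryonic ectoderm and at or below 0.0340 in the classes taken as embryonic mesoderm, which leave out the node and notochord-like states.

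Neural-like and epiblast-like states overlapped in Sox2 and not in Sox21. Sox2 averaged 0.563 in the neural-like states and 0.388 in the epiblast-like states, and neural-like state 11, at 0.361, lay inside the epiblast-like range of 0.239 to 0.505. The overlap rested on state 11 alone, since the other neural-like states were between 0.608 and 0.667. State 11 had Pou5f1 among its leading genes and was left unnamed when states were named from markers in a single list only. Sox21 averaged 0.235 in the neural-like states (0.109 to 0.360) and 0.00804 in the epiblast-like states, a difference of 0.227 without overlap, as were 30.1% of all genes, and Sox9 averaged 0.214 in the neural-like and 0.0530 in the epiblast-like states, a difference of 0.161 without overlap. None reached 0.25. The extraembryonic ectoderm-like states also had more Sox21 than the epiblast-like states: it averaged 0.00804 in the epiblast-like states, against 0.226 in the extraembryonic ectoderm-like states (0.159 and 0.294), a difference of -0.218 without overlap, as were 22.9% of all genes in that direction. Sox21 averaged 0.0212 in the neuromesodermal progenitor-like and 0.235 in the neural-like states, and Sox9 averaged 0.0401 in the neuromesodermal progenitor-like and 0.214 in the neural-like states. Both were without overlap, as were 9.69% of all genes in that direction, while Sox2 overlapped, again through state 11 alone. Sox21 was also higher in the neural-like states, at a mean of 0.235, than in the surface ectoderm-like states, at 0.0543 (0.0203 and 0.0883), where 11.2% of all genes were higher without overlap.

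In the vessel lineage, both SoxF genes were higher in the endothelium-like than in the primitive blood-like states, lineages that are known to arise close together in the yolk sac. Sox7 was 0.284 and 0.276 in endothelium-like states 13 and 32, against 0.00342 and 0.00424 in the primitive blood-like states, a difference of means of 0.276. Sox17 was 0.283 and 0.501 in endothelium-like states 13 and 32, against 0.00539 in each primitive blood-like state, a difference of means of 0.386. When each state was centred on the median of its genes, the difference was 0.221 for Sox7, under 0.25, and 0.332 for Sox17. When ties between marker lists were allowed in naming, state 36 joined the endothelium-like class. The difference was then 0.192 for Sox7, again under 0.25, and 0.258 for Sox17. The main differences stand beside a high background, since 16.4% of all genes were past 0.25 higher in this comparison. In the primordial germ cell-like state Sox17 was 0.479, against a mean of 0.0835 in the epiblast-like states (0.00334 to 0.252), a difference of 0.396, with 6.74% of all genes past 0.25 higher. In this comparison Sox2 overlapped, at 0.498 in the primordial germ cell-like state and a mean of 0.388 in the epiblast-like states. Presomitic mesoderm-like state 30 and somite-like state 18 each had 1 state, and Sox9 was 0.0404 in presomitic mesoderm-like state 30 and 0.214 in somite-like state 18, a difference of -0.174.

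Genes with the most similar pattern over the 42 states were taken as the 5 with the highest Pearson r to each Sox gene. For Sox2 these were Apba2 (r 0.764), Sall2 (0.743), Uchl1 (0.697), Stmn2 (0.691) and Sox21 (0.667), and 5.34% of the 711 other genes had an r of at least 0.5. Sall2 and Sox21 shared state 24 as the highest state of Sox2. For Sox21 they were Rfx4 (0.726), Sox2 (0.667), Gm1673 (0.646), the eye and neural tube regulator Pax6 (0.634) and Fez1 (0.620), with 2.25% of genes at 0.5. Rfx4, Pax6 and Fez1 were highest in the neural-like state 39.

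For Sox9 the 5 genes were Nrep (0.892), Tmod2 (0.829), Scara3 (0.818), Cthrc1 (0.814) and Vtn (0.778), and 10.3% of genes reached 0.5, the highest share of the 6. All 5 were highest in one of the node and notochord-like states 23 and 38, and their r stayed between 0.661 and 0.864 without state 23. For Sox10 they included Tfap2b (0.967), a crest regulator, Dlx2 (0.913), Ngfr (0.633), a receptor of crest cells, and Nr2f1 (0.626), with 1.55% of genes at 0.5. These 4 were highest in the neural crest-like state 33. Without that state r was 0.902 for Tfap2b and 0.830 for Dlx2, against 0.174 for Ngfr and 0.256 for Nr2f1. These values lean on the unnamed state 35, where Sox10 was 0.291, since no other remaining state exceeded 0.0216. By Spearman rho over all states the order differed, with 0.541 for Tfap2b, 0.559 for Dlx2, 0.618 for Ngfr and 0.614 for Nr2f1.

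For Sox7 the 5 genes were Nid1 (0.911), Fxyd3 (0.829), Wfdc1 (0.829), Lama1 (0.826) and Hs3st1 (0.825), and 3.94% of genes reached 0.5. All 5 were highest in the parietal endoderm-like state 14, and 4 of them rested on it: without state 14, r was 0.655 for Nid1, a basement membrane gene, but 0.0997 for Lama1, 0.00835 for Fxyd3, -0.0398 for Hs3st1 and -0.153 for Wfdc1. For Sox17 they were the receptor gene Kit (0.741), Pga5 (0.709), Col4a2 (0.701), Sox7 (0.700) and Srgn (0.683), with 2.81% of genes at 0.5. All 5 were likewise highest in state 14, and r without it was between 0.517 and 0.607.

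Lists of genes known from the settings of the family were then set beside each Sox gene, by the number of measured members with an r of at least 0.5 and by their median r. Of 14 measured neural genes, 6 reached 0.5 with Sox2 (Pou3f1 at 0.66, Hes3 at 0.64, Hes5 at 0.63, Pax6 at 0.62, Otx2 at 0.56 and Lhx5 at 0.55), and none was at or under 0, beside the 5.34% of all genes at 0.5 and 59.9% at or under 0. Their median r was 0.489, beside -0.0868 over all genes. With Sox21, 4 of the 14 reached 0.5 (Pax6 at 0.63, Lhx5 at 0.60, Irx3 and Hes5 at 0.58) and the median was 0.431, beside -0.0524 over all genes. These counts depended on the measure: with Spearman rho in place of r, 2 of the 14 reached 0.5 with Sox2 and 1 with Sox21, but 7 with Sox9 and 4 with Sox10. Over all genes rho of at least 0.5 was reached by 9.85% with Sox2, 1.69% with Sox21, 21.7% with Sox9 and 8.72% with Sox10. The neural list members, which include the Notch targets Hes3 and Hes5, had medians of 0.136 with Sox9 and -0.0393 with Sox10, and of -0.134 with Sox7 and -0.177 with Sox17.

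Of 14 measured pluripotency genes, 1 reached an r of 0.5 with Sox2, a share near the 5.34% over all genes. By Spearman rho 4 did, beside 9.85% of all genes. The member at 0.5 was Pou3f1, which the neural list also holds, followed by Nanog (0.41) and Utf1 (0.40). The median was 0.207, beside -0.0868 over all genes, and Trap1a, Klf2, Klf4 and Lefty2 were at or under 0. At an r of 0.3 the count with Sox2 was 5 of 14, beside 14.2% of all genes. Klf4, known as a reprogramming factor, had an r of 0.81 with Sox7 and 0.54 with Sox17. By Spearman rho no pluripotency gene reached 0.5 with Sox7, and 1 did with Sox17. Of the 11 measured germ cell genes none reached 0.5 with Sox2 (median 0.164), and 3 did by Spearman rho. With Sox17 Kit alone did by r, though its rho was 0.313, and 1 of the 11 did by rho. Prdm1 (0.46) and Dppa5a (0.43) followed by r, with a median of 0.246 and Tfap2c under 0. Beside these, 5.34% of all genes reached 0.5 with Sox2 and 2.81% with Sox17 by r, and 9.85% and 3.38% by rho. Kit also had an r of 0.68 with Sox7, but no germ cell gene reached a rho of 0.5 with Sox7.

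The list of neural crest and cartilage-type genes split between the SoxE genes. Of 13 measured members, 5 reached 0.5 with Sox9: the notochord genes Shh (0.76), Noto (0.70) and Foxa2 (0.53) and the collagen genes Col9a1 (0.60) and Col2a1 (0.54). With Sox10 another 5 reached it, among them Tfap2b, Dlx2, Tfap2a (0.60) and Ets1 (0.56), while Snai2, Shh, Noto and Foxa2 were at or under 0. The medians were 0.378 with Sox9 and 0.418 with Sox10, beside -0.0315 and -0.0620 over all genes. Over all genes an r of 0.5 was reached by 10.3% with Sox9 and 1.55% with Sox10. By Spearman rho 6 of the list reached 0.5 with Sox9 and 5 with Sox10, beside 21.7% and 8.72% of all genes.

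Of 17 measured endoderm genes, 1 reached 0.5 with Sox17, beside 2.81% of all genes: Gata4 (0.52), followed by Hhex (0.50, just under the limit) and Foxa3 (0.47). By Spearman rho 4 did, beside 3.38% of all genes. At an r of 0.3 the count with Sox17 was 10 of 17, beside 12.8% of all genes, with a median of 0.329 beside -0.0328 over all genes. Otx2 and Mixl1 were under 0. With Sox7, Gata4 (0.61) and Gata6 (0.57) reached 0.5, but 11 of 17 were at or under 0, beside 63.7% of all genes, and the median was -0.0807. By Spearman rho none of the 17 reached 0.5 with Sox7, beside 1.27% of all genes, and by r the share of all genes was 3.94%. Of 18 measured vessel genes, 2 reached 0.5 with Sox7, Ramp2 (0.72) and Flt1 (0.52), followed by Esam (0.41), with a median of 0.363, beside 3.94% of all genes at 0.5. With Sox17, beside 2.81% of all genes, Ramp2 (0.58) did, followed by Flt1 (0.44) and Cldn5 (0.39), with a median of 0.265. By Spearman rho 2 reached 0.5 with Sox7 and none with Sox17, beside 1.27% and 3.38% of all genes. No vessel gene was at or under 0 with either SoxF gene, beside 63.7% of all genes with Sox7 and 54.1% with Sox17. All 18 were at or under 0 with Sox2 and with Sox21, and 17 with Sox9, beside 59.9%, 57.7% and 53% of all genes. Of 11 measured genes of a list of mesenchyme and neuronal genes drawn up around the SoxC group, 2 reached an r of 0.5 with Sox2, Stmn2 (0.69) and Tubb3 (0.53), beside 5.34% of all genes, and none did with the other 5 genes. By Spearman rho 1 of 11 reached 0.5 with Sox2, 7 did with Sox9 and 4 with Sox10, beside 9.85%, 21.7% and 8.72% of all genes. The medians of that list were 0.288 with Sox9, 0.155 with Sox10 and between -0.143 and -0.196 with the rest.

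**Figure D4:**
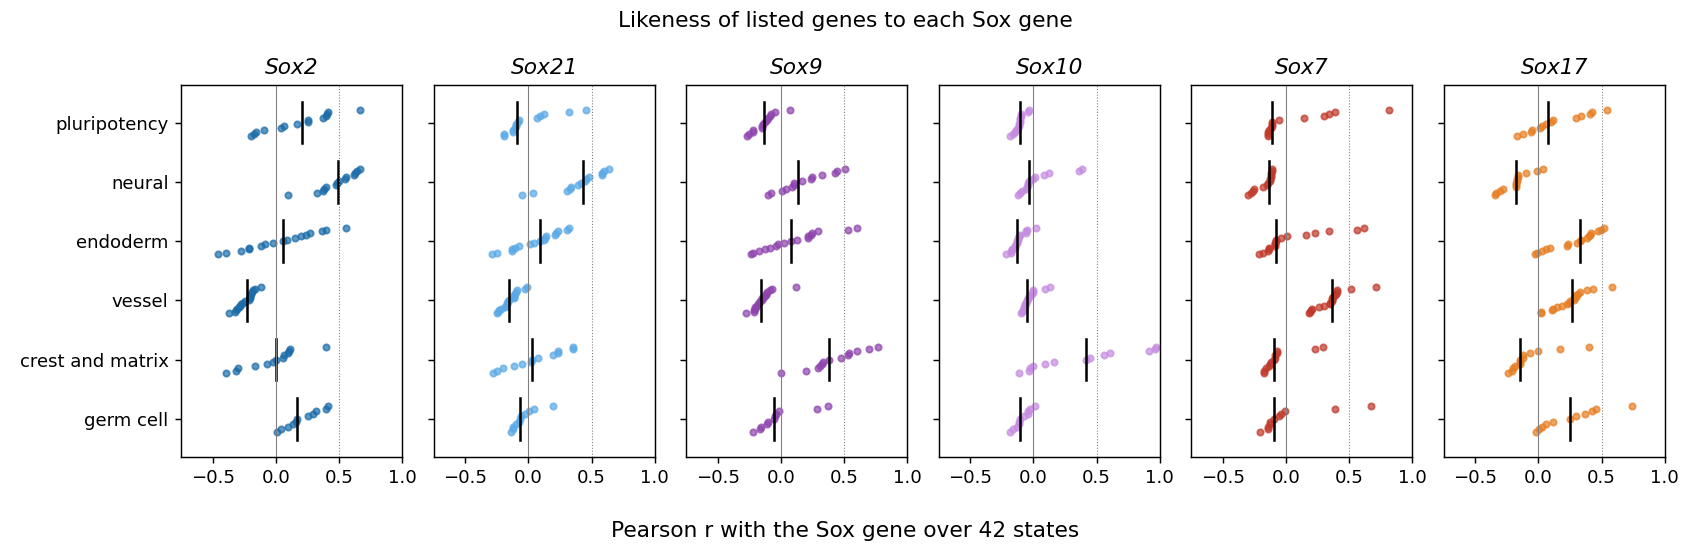
Pearson r over the 42 states between each Sox gene and the measured members of 6 gene lists; a point is 1 gene, a black bar the median of the list, the solid line 0 and the dotted line 0.5. Neural genes lie highest for Sox2 and Sox21 (medians 0.489 and 0.431), crest and matrix genes for Sox9 and Sox10 (0.378 and 0.418), vessel genes for Sox7 (0.363) and endoderm genes for Sox17 (0.329).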

How the data were processed

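Cells of 8 wild-type libraries were profiled by the authors with 10x Genomics 3' version 2 chemistry, per the labels' protocols. Cell Ranger (version not given) and build mm10 are named in the submitters' processing notes. The deposited table holds 1 cluster-centre score per gene and state, per the file headers. How cells were clustered, how genes were chosen and how the scores were scaled are not given in the sources used here, and any log or gene scaling would change the differences. How doublets were treated and how reads of overlapping genes were counted is likewise not given.

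The 6 genes and all lists were chosen with earlier results of these data known. States were named from 25 marker lists without Sox genes. A name needed at least 4 measured markers, at least 3 of them more than 1 SD above their mean over states, and at least 2 among the 10 genes with the highest difference from the other 41 states, more than from any other list; the list with the highest median z-score gave the name, and 2 neural lists were pooled. This naming rule was set after values were seen. Named genes were the Sox genes, the 5 genes most like each, the 3 highest and any at or under 0 of a list, and up to 3 leading genes of a comparison; 1 gene that this rule names is not reported here. The 7 gene lists are the neural, pluripotency, germ cell, crest and cartilage-type, endoderm, vessel and SoxC-partner lists. Of 17 planned comparisons 16 were made: no state was named pharyngeal mesoderm, and the hindbrain list was used within the pooled neural class. Analyses used Python 3.11.15, pandas 2.3.3, numpy 2.4.6 and scipy 1.17.1 and were tested on simulated data. Gene positions are from GENCODE M21 (GRCm38) and promoters from RefSeq (GRCm38.p6). 1 library labelled E8.5 in its title has a description that says E8.0, which touches no value here, since states hold no stage.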

Additional observations from a re-analysis of the deposited data

How the results depend on the processing

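For 43 single results, 180 values were set against a limit under alternative settings. Of these, 145 kept their side of the limit, 11 fell below a limit, 14 passed one and 10 counts moved by over 1.5 times. Of the 14, 10 passed only because the limit was set to 0.25. Of the 11, 6 fell only because it was set to 0.75. Under these limits, and with overlap allowed, the values themselves were unchanged. No value past its limit changed sign, but 7 values of 6 Sox pairs with weak r did, 5 of them by Spearman rho, such as Sox10 with Sox21 (r -0.0788, rho 0.388) and Sox2 with Sox10 (r -0.0489, rho 0.385). Set against the next highest state in place of the mean of the other 41, 0 of 3 Sox genes stayed 0.5 above the rest. With a limit of 0.25 for class differences, 16 were called in place of 6, and with 0.75 none (0). The pairs with r of at least 0.5 numbered 2, and 3 by Spearman rho, which added Sox9 with Sox10. Of the 30 most similar genes, 5 were the same by Spearman rho and 15 without the highest state. List members with r of at least 0.5 numbered 37, against 126 at an r of 0.3 and 62 by Spearman rho. With states named from single-list markers (30 named), Sox9 between node and notochord-like and gut endoderm-like states was 0.482 and no longer called. With ties between lists allowed, an alternative chosen after seeing the data (39 named), the 6 calls stayed 6. No paired analysis was possible because the table has no library columns, and for the same reason no replicate could be left out. The planned comparison of protein sequences was not run. The depth behind the levels is unknown, so it cannot be said at which low level a gene was detected.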

Other observations

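A further set of values concerns pairs of like states that differed in Xist, the RNA that coats the inactive X chromosome of female cells. Of the 42 states, 4 had an Xist level under 0.25, a limit set after the values were seen: the neural-like state 11 (0.180), the epiblast-like state 19 (0.148), the extraembryonic ectoderm-like state 25 (0.133) and the unnamed state 35 (0.176). Each was set beside the state most like it over the 712 genes: state 1 (Xist 0.75), state 8 (0.911), state 0 (0.595) and the neural crest-like state 33 (1.04). Across genes, r between the members of a pair was between 0.757 and 0.957.

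Sox2 was lower in the low-Xist state in 4 of 4 pairs. It was 0.361 in state 11 and 0.608 in state 1, 0.325 in state 19 and 0.505 in state 8, 0.245 in state 25 and 0.403 in state 0, and 0.0806 in state 35 and 0.130 in state 33. Of all 712 genes, 19.7% were lower in all 4 pairs, and 2.11% were lower in all 4 by at least the smallest Sox2 difference of -0.0494. Sox9 was also lower in 4 of 4 pairs, with differences between -0.323 (state 35 minus state 33) and -0.00626 (state 25 minus state 0). Sox17 was higher in the low-Xist state in 4 of 4 pairs, by between 0.0237 and 0.109. Of all genes, 15.2% were higher in all 4 pairs, and 3.65% were higher in all 4 by at least the smallest of these. Sox17 was 0.118 in state 25 and 0.00955 in state 0, the pair with the largest Sox17 difference. The sum of all levels was 103 in state 25 and 108 in state 0, 112 in both states 11 and 1, 99.9 in state 19 and 101 in state 8, and 95.5 in state 35 and 105 in state 33. What set these pairs apart was not tested, and the states could not be traced to libraries.

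The 3 genes with the lowest r over the 42 states were Tpi1, Eno1b and Eno1 for Sox7 and Tpi1, Fabp5 and Eno1 for Sox17; Tpi1 and Eno1 encode enzymes of glycolysis. Tpi1 had an r of -0.668 with Sox7 and -0.590 with Sox17, Eno1 had -0.534 with Sox7 and -0.476 with Sox17, Fabp5 had -0.507 with Sox17, and Eno1b, a near-identical copy of Eno1 whose level is uncertain for that reason, had -0.549 with Sox7. Tpi1, Eno1 and Eno1b were below their medians in the parietal endoderm-like state 14, where Sox7 and Sox17 were highest: Tpi1 was 0.810 there against a median of 1.18 over the states, Eno1 0.901 against 1.31, and Eno1b 0.415 against 0.995. Without state 14, r with Sox7 was -0.229 for Tpi1, -0.292 for Eno1 and -0.269 for Eno1b, and r with Sox17 was -0.353 for Tpi1, -0.385 for Fabp5 and -0.296 for Eno1. By Spearman rho Tpi1 had -0.111 and Eno1 had -0.0432 with Sox17. The genes least like Sox2 were Ppic (-0.590), the growth factor gene Igf2 (-0.556) and Gadd45g (-0.525), of which Ppic and Igf2 were highest in the extraembryonic mesoderm-like state 41.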
